A study of Homo sapiens with 52 samples.

Results

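SUM159PT is an established claudin-low breast cancer cell line, and the comparison described here sets its cells treated with siNRP1#5 directly against its cells treated with siNRP1#3, which makes 5 of the 52 RNA-seq samples of the series. The first of these siRNAs is directed at transmembrane and soluble transcripts of Neuropilin-1 (NRP1). The second is directed only at those that encode the membrane-spanning form. By design the comparison sets loss of both forms against loss of the transmembrane form. The mean level of soluble transcripts was, however, higher with siNRP1#3 than without knockdown, as given below. Both siRNAs were reverse transfected at 20 nM, and RNA was harvested 72 hrs later. The siNRP1#3 group has independent biological replicates 1, 2 and 3 and the siNRP1#5 group replicates 2 and 3. An outlier sample that the authors removed was not analysed here. The non-targeting siRNA group (siNT, n = 3, same dose and time) is given beside the comparison as the level without knockdown. For comparison, 6 SUM159PT samples carried the lentiviral hairpins shNRP1#5 or shNRP1#3, harvested 48 hrs after seeding of puromycin-selected cells, and 6 MDA-MB-231 samples (another claudin-low line) received the same siRNAs as SUM159PT. Each form of loss is represented by 1 siRNA sequence, so loss of the soluble form and the identity of the siRNA cannot be told apart in this pair.

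NRP1 is a cell-surface co-receptor without kinase activity of its own. It binds class 3 semaphorins together with plexins and binds members of the VEGF family together with receptor tyrosine kinases, and in cancer cells it has been linked to migration, survival and mesenchymal state. Soluble NRP1 arises from shorter transcripts, keeps the ligand-binding extracellular part and lacks the membrane anchor. An siRNA guide strand cuts a fully complementary transcript, and pairing of its seed (guide bases 2 to 8) with a 3′ untranslated region (3′ UTR) can also lower other transcripts, as a microRNA does.

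The target sites are shown because they decide which NRP1 transcripts each siRNA meets and which seed each guide carries. They were read from the reference at the positions of the siRNA sites, in the direction of transcription, 5′ to 3′, with the 7 bases that face the guide seed in capitals (bases 12 to 18 of the site).
siNRP1#3 site: taaccacatttCACAAGAa
siNRP1#5 site: cagccttgaatGCACTTAt
In GRCh38 the siNRP1#3 site lies at chr10:33185638-33185656 on the minus strand, in exon 15 of the transmembrane transcript NRP1-206, and is present in 4 of 14 annotated NRP1 transcripts, all of them transmembrane (NRP1-201, NRP1-206, NRP1-207 and NRP1-208). The siNRP1#5 site lies at chr10:33263779-33263797 on the minus strand, in exon 4, and is present in 9 of the 14, which are these 4 and the soluble transcripts NRP1-202, NRP1-203, NRP1-204, NRP1-205 and NRP1-212.

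Total NRP1 was lower with siNRP1#5 than with siNRP1#3. Its level was 7.5 and 13.9 TMM-normalised CPM (read counts scaled to a common library size) with siNRP1#5 (replicates 2 and 3), 57.8, 31.3 and 60.8 CPM with siNRP1#3 (replicates 1, 2 and 3) and 253, 150 and 237 CPM with siNT. No sample of one group reached the range of another. The log2 fold change between the siRNAs was -2.22 ± 0.36 (SE), with an adjusted p of 4.15e-04 (quasi-likelihood test of edgeR, p-values adjusted by Benjamini-Hochberg over 20067 genes).

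The 2 forms differed between the siRNAs by unequal amounts. Summed over the 4 transmembrane transcripts, the level was 0.99 and 2.17 TPM (transcript abundance scaled for length and library size) with siNRP1#5, 3.78, 2.52 and 3.86 TPM with siNRP1#3, and 49.1, 24.9 and 45.8 TPM with siNT. Both siRNAs therefore left the transmembrane form far below siNT, and the siNRP1#5 samples were the lower ones. Summed over the 5 soluble transcripts, the level was 0.11 and 0.66 TPM with siNRP1#5 and 21.8, 9.33 and 27.2 TPM with siNRP1#3. The siNT samples had 8.43, 1.77 and 11 TPM of the soluble form, so the siNRP1#3 samples overlapped with siNT only through replicate 2. The mean of the soluble form was 19.4 ± 9.16 TPM (SD, n = 3) with siNRP1#3 and 7.05 ± 4.74 TPM (n = 3) with siNT, which was not tested. On the log2(TPM + 0.1) scale the difference between the siRNAs was -1.12 for the transmembrane form and -5.48 for the soluble form, which is 2.18-fold and 44.5-fold lower with siNRP1#5. On TMM-normalised CPM of the expected counts the differences were -0.73 and -5.02, and the transmembrane form nearly touched between the groups (6.86 and 12 against 17.5, 12.5 and 15.9 CPM). The groups of 2 and 3 samples did not overlap for either form, and the exact two-sided permutation test gave p = 0.1 for both, which is the smallest it can give here.

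Most of the soluble signal was NRP1-204, with 17.8 ± 8.58 TPM (SD, n = 3) after siNRP1#3 and 0.12 ± 0.113 TPM (n = 2) after siNRP1#5. Soluble transcripts made up 78.9 ± 6.33% of NRP1 after siNRP1#3, 14.7 ± 10.3% after siNRP1#5 and 10.7 ± 5.09% after siNT (n = 3). Without siNRP1#5 replicate 2 the transmembrane difference was -0.594 and without replicate 3 it was -1.65, so the size of this smaller difference rests on which siNRP1#5 sample is used.

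**Figure D1:**
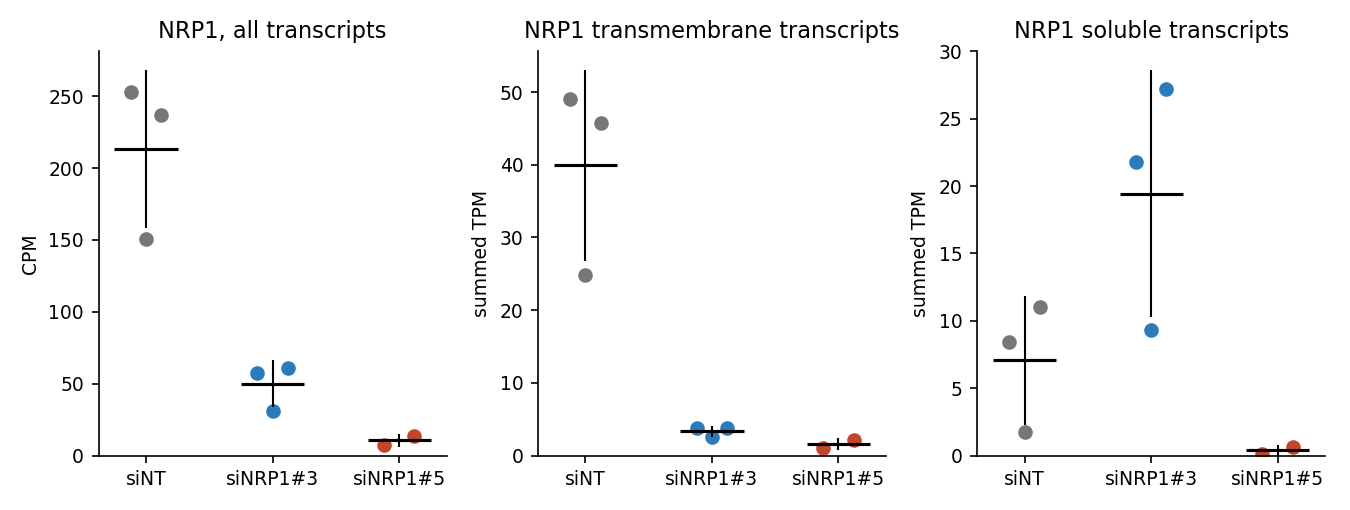
NRP1 in each SUM159PT siRNA sample, as CPM of the whole gene and as summed TPM of its transmembrane and soluble transcripts, with bars for the mean and lines for ± SD (n = 3, 3 and 2). The soluble form lies between 9.33 and 27.2 TPM after siNRP1#3 and at most at 0.66 TPM after siNRP1#5.

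The comparison separated a large part of the transcriptome. At an adjusted p under 0.05, 5967 of 20067 genes differed (29.7%), with 3208 higher (16%) and 2759 lower (13.7%) with siNRP1#5. The CPM of both groups did not overlap for 50.7% of all genes tested and for 96.5% of the called genes. Among called genes, 1637 differed by over 4-fold, 601 higher and 1036 lower with siNRP1#5, and protein-coding genes were called more often (32.9% of 14391) than lncRNAs (22.5% of 4558). Values below are log2 fold changes of CPM, siNRP1#5 minus siNRP1#3, with their SE.

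The level with siNT lay between the 2 siRNA groups for 77.1% of the genes called higher and 77.3% of those called lower. It was nearer to siNRP1#3 for 65% and 64.9% of them. These genes were selected for a gap between the 2 siRNA groups, which by itself makes a siNT level inside the gap likely. Neither share was computed over all genes tested. The siNRP1#5 mean also rests on 2 samples, so the shares do not show how either siRNA acts. The balance of directions moved with library scaling, where TMM factors were 0.78 and 0.848 in the siNRP1#5 samples and 0.968 to 1.11 in the siNRP1#3 samples. On TPM without TMM scaling the median log2 fold change of all genes was -0.347 (0.0181 on TMM-normalised counts), and 21.4% of 5463 calls were higher with siNRP1#5 in place of 53.8%.

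Library totals were 39670676 to 59470456 expected counts in the 5 samples. The siNRP1#5 replicates were less alike (Pearson r = 0.952 of log2 CPM across genes) than the siNRP1#3 replicates (0.974 to 0.983). The siNT replicates had 0.958 to 0.979, so the value of siNRP1#5 was close to the lowest of siNT. The cells expressed VIM at 1380 to 3740 TPM, and CLDN3, ESR1 and PGR were at or near 0 in all 5 samples, while ERBB2 (11.5 to 46 TPM) and CLDN4 (0.4 to 12.1 TPM) were not. The 3 leukocyte markers summed to 1.61 to 5.37 TPM with siNRP1#5 and 16.5 to 31.7 TPM with siNRP1#3, where CD3E was at 0, PTPRC lay between 0.98 and 4.68 TPM, and CD68, which lysosomes of many cells carry, was at 0.63 and 0.69 TPM with siNRP1#5 against 20.6, 29.9 and 14.6 TPM with siNRP1#3. The 3 fibroblast markers summed to 8.26 to 17.5 and 14.5 to 23.6 TPM and the 3 endothelial ones to 3.67 to 5.57 and 5.45 to 9.01 TPM. The 4 luminal epithelial markers were high, at 1100 to 1830 TPM with siNRP1#5 and 1000 to 1170 TPM with siNRP1#3. Nearly all of this was KRT8, while EPCAM, KRT19 and ESR1 were low (KRT19 at most 1.58 TPM). Genes that mark MDA-MB-231 (31) or HS578T (37) sat at medians of at most 0.747% of their level in those lines, a value set by siNRP1#3 replicate 3 for MDA-MB-231 markers, where the other 4 samples had 0.0909 to 0.177%.

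The named genes with the largest increases with siNRP1#5, which leave out a gene without a symbol, were nearly silent with siNRP1#3 and low with siNT. H19, an imprinted lncRNA, was at 16.3 and 61 CPM with siNRP1#5 and at 0, 0.0233 and 0.0204 CPM with siNRP1#3. Only 2 counts stood behind the siNRP1#3 value, so its ratio of 2890 has a 95% counting interval of 799 to 23900. EXOC3L2 (an exocyst-like gene) was at 6.1 and 14 CPM against 0.0251, 0 and 0 CPM, a ratio of 1440 (258 to 57100) from 1 count. NES, the intermediate filament nestin, was at 10.9 and 11.7 CPM against 0.301, 0.257 and 0.611 CPM, and both siNRP1#5 samples were alike (log2 fold change 4.84 ± 0.54, adjusted p 3.06e-05).

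In several genes of this set siNRP1#5 replicate 3 was far above replicate 2. CD180, a Toll-like receptor homologue, was at 1.78 and 78.5 CPM with siNRP1#5 against 0.0752, 0.0466 and 0.122 CPM with siNRP1#3. LSP1, an actin-binding leukocyte-specific protein, was at 34.9 and 146 CPM against 0.903, 0.77 and 0.53 CPM. The ephrin receptor EPHB3 was at 1.24 and 14.5 against 0.0251, 0.0933 and 0.0407 CPM, and the potassium channel KCNH2 at 1.94 and 11.9 against 0.125, 0.187 and 0.204 CPM. In each of these the lower siNRP1#5 sample lay above every siNRP1#3 sample, which the rule for naming them required. FGFBP1, which encodes a carrier of fibroblast growth factors, had 0.0635 and 29 CPM with siNRP1#5 and 0.0502, 0 and 0.0204 CPM with siNRP1#3. Its log2 fold change of 9.15 therefore rests on replicate 3, and without that sample it was 1.38. Wherever a siNRP1#5 sample is left out, that group is a single sample that is assumed to vary like the other groups, which alone give the spread. LGALS12 (6.32) and the trypsinogen gene PRSS2 (4.90) complete the 10 named for size, and PRSS2 lost its call without replicate 3 (adjusted p 0.0627).

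At the other end, several genes were high with siNRP1#3 alone. AMTN, which encodes amelotin, was at 0.0953 and 0.0991 CPM with siNRP1#5, 22, 14.7 and 15.2 CPM with siNRP1#3 and 0.224, 0.119 and 0.251 CPM with siNT. TMEM265 had no count in either siNRP1#5 sample and 8.35, 17.2 and 13.8 CPM with siNRP1#3, which makes it at least 362-fold lower with siNRP1#5 when 3 counts over the group are taken as the floor. LINC02454, LMOD1 (a muscle leiomodin), PLEKHB1 and the mucin MUC13 had the same arrangement, with 2.71 to 12.2 CPM in the siNRP1#3 samples and at most 0.496 CPM in the siNRP1#5 samples. For these 6 genes siNRP1#3 was called above siNT.

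ITGB4 and IL36B differed in the other way, through siNRP1#5 falling below siNT. ITGB4, the laminin-binding integrin beta 4, was at 6.29 and 1.92 CPM with siNRP1#5, 97.3, 201 and 71.6 CPM with siNRP1#3 and 197, 91.4 and 119 CPM with siNT (log2 fold change -4.92 ± 0.76, adjusted p 3.66e-04). The cytokine gene IL36B was at 0.572 and 0.139 against 10.5, 11.9 and 3.14 CPM, a difference whose adjusted p was 0.0671 without siNRP1#5 replicate 3. The receptor tyrosine kinase ROS1 moved on both sides of siNT, with 7.5 and 3.17 CPM after siNRP1#5, 40.9, 13.9 and 23.4 CPM after siNT and 147, 124 and 81.3 CPM after siNRP1#3. GDA, guanine deaminase, had a log2 fold change of -4.52 ± 0.78.

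**Figure D2:**
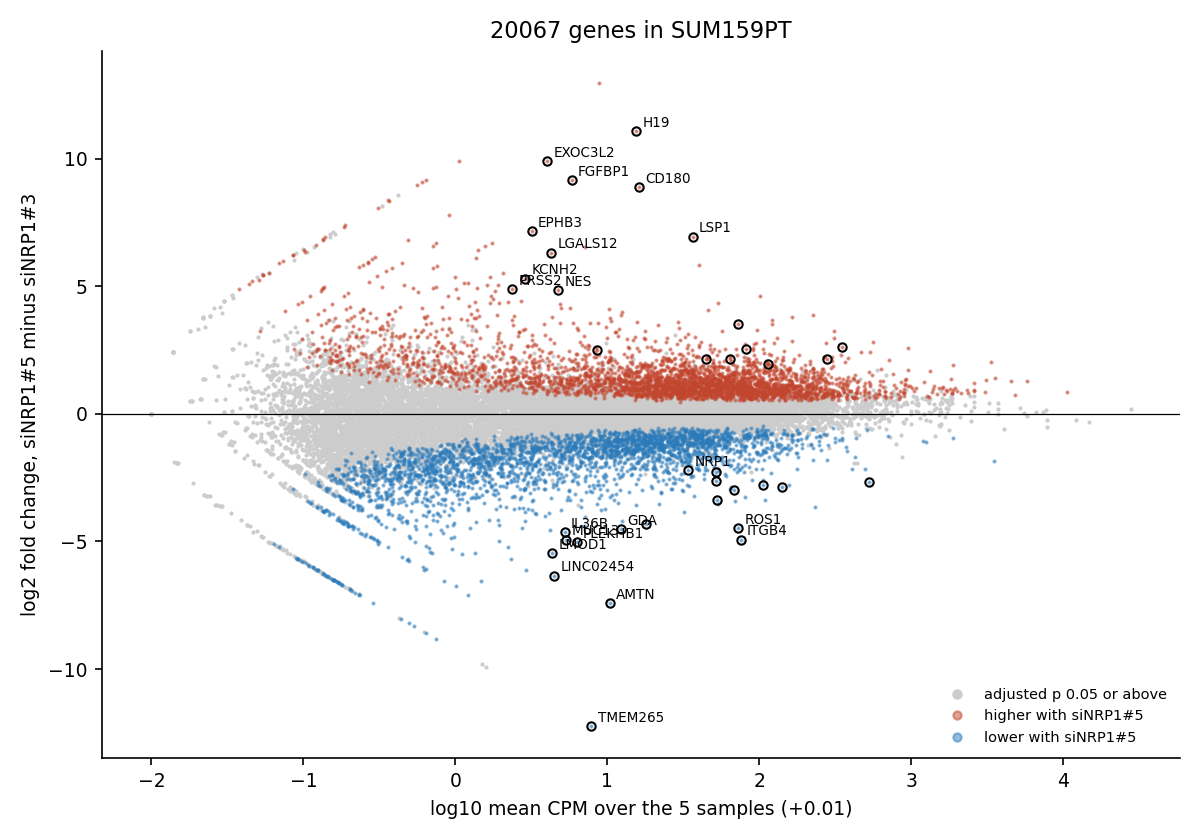
Each of 20067 genes by its mean CPM over the 5 samples (x axis, log10) and its log2 fold change between siNRP1#5 and siNRP1#3 (y axis), red where called higher and blue where called lower with siNRP1#5. Circles mark NRP1 and the genes named for size or lowest p, and TMEM265, at 0 in both siNRP1#5 samples, and H19 are the outermost labelled points.

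The differences with the lowest p were smaller. Of the 8 genes with the lowest p among those lower with siNRP1#5, HADHB (a subunit of the mitochondrial trifunctional protein of fatty acid oxidation) was at 21.6 and 24.7 CPM with siNRP1#5, 177, 169 and 135 CPM with siNRP1#3 and 123, 165 and 126 CPM with siNT. CYB5R3, the NADH-cytochrome b5 reductase, was at 101 and 146 CPM against 818, 907 and 655 CPM. ATF6B, a membrane-bound transcription factor of the endoplasmic reticulum, was at 6 and 9.91 CPM against 89.5, 90.2 and 68.5 CPM and 134, 100 and 108 CPM with siNT. In these 3 genes siNRP1#5 lay below every siNRP1#3 and siNT sample, and the difference between siNRP1#3 and siNT did not pass the test.

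Both siNRP1#5 samples also lay below all others for DAZAP2 (-2.86 ± 0.22, the one of these genes where siNRP1#3 was called above siNT), CYBRD1 (a ferric reductase, -3.00 ± 0.24), HIF1AN (the asparaginyl hydroxylase that inhibits HIF, -2.30 ± 0.19) and BECN1 (the autophagy protein beclin 1, -2.63 ± 0.26). REEP2, which shapes the endoplasmic reticulum, was instead high with siNRP1#3, at 32.9, 29.2 and 24.9 CPM against 7.69, 6.69 and 5.94 CPM with siNT and 1.75 and 1.17 CPM with siNRP1#5. The adjusted p of the 8 genes lay between 2.55e-06 and 1.31e-05.

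The 8 genes with the lowest p among those higher with siNRP1#5 had their lowest levels with siNRP1#3. MRPL58, a mitochondrial ribosome-associated peptidyl-tRNA hydrolase, was at 222 and 102 CPM with siNRP1#5, 13.1, 15.2 and 13.7 CPM with siNRP1#3 and 61.4, 74.4 and 58 CPM with siNT. GNAI2, an inhibitory G protein alpha subunit, was at 538 and 875 CPM, 109, 133 and 106 CPM and 500, 430 and 581 CPM in the same order. SF3B2, a spliceosome component, was at 431 and 623 CPM, 131, 108 and 114 CPM and 292, 318 and 334 CPM. All 3 siNRP1#3 samples lay below every siNT and siNRP1#5 sample in these genes.

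The transcriptional corepressor CTBP2 (2.13 ± 0.19), the mitochondrial membrane protein FUNDC2 (2.16 ± 0.19), the replicative helicase subunit MCM6 (2.54 ± 0.23), the mitochondrial ribosomal protein MRPS7 (1.96 ± 0.19) and NCAL1 (2.49 ± 0.24) complete the 8, with adjusted p from 2.55e-06 to 1.15e-05. In all 8 genes siNRP1#3 was called below siNT, and in 6 of them (all but GNAI2 and FUNDC2) siNRP1#5 was called above siNT. In FUNDC2 the siNRP1#5 samples stood at 117 and 123 CPM, not far above the 82.4, 101 and 99.4 CPM of siNT, while siNRP1#3 had 26.2, 30.2 and 24.3 CPM.

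The 3′ UTRs of these genes were searched for the seed-facing heptamer of each siRNA site, since the sites printed above differ there. The heptamer of the siNRP1#5 site, GCACTTA, occurred on the transcript strand of 7 of the 8 genes with the lowest p among protein-coding genes lower with siNRP1#5 (87.5%), against 9.12% of all 14087 protein-coding genes with an annotated 3′ UTR. That of the siNRP1#3 site, CACAAGA, occurred in 5 of the 8 with the lowest p among protein-coding genes higher with siNRP1#5 (62.5%), against 10.1% of all. The following 19-base stretches, read from GRCh38 with GENCODE 44 3′ UTRs and aligned to the siRNA site by the heptamer in capitals, show how much of the rest of the site they share.
HADHB, chr2:26290082-26290100 (plus strand): ttaaatagtttGCACTTAa
HIF1AN, chr10:100553875-100553893 (plus strand): gtgcctggcaaGCACTTAa
CYB5R3, chr22:42619545-42619563 (minus strand): cgtcctgcctgGCACTTAc
ATF6B, chr6:32115603-32115621 (minus strand): gtgggggttaaGCACTTAt
MRPL58, chr17:75021125-75021143 (plus strand): attggagccatCACAAGAa
GNAI2, chr3:50258802-50258820 (plus strand): aaaggaaaaagCACAAGAa
SF3B2, chr11:66068788-66068806 (plus strand): cctgggcttcaCACAAGAa
Of the 19 bases, 10 were identical to the siRNA site in HADHB, ATF6B, MRPL58 and SF3B2, 11 in CYB5R3, 12 in GNAI2 and 13 in HIF1AN, of which the heptamer itself makes 7. In the stretches not printed, 8 were identical in CTBP2, 9 in CYBRD1, 10 in BECN1 and 11 in DAZAP2. REEP2 held no GCACTTA in its 3′ UTR, and FUNDC2, MCM6 and MRPS7 held no CACAAGA.

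Over all called protein-coding genes the heptamers were unevenly spread. GCACTTA was present in 18.4% of the 1966 genes lower with siNRP1#5, in 4.25% of the 2730 higher and in 8.59% of the 9391 not called. CACAAGA was present in 12.1% of the genes higher with siNRP1#5, in 9.16% of those lower and in 9.66% of those not called. Genes lower with siNRP1#5 had longer 3′ UTRs (median 1466 bases) than genes higher (1052), and a long UTR holds any heptamer more often. Within each of 4 equal bins of UTR length the order for GCACTTA was kept, from 3.19% (lower), 1.02% (not called) and 0.39% (higher) in the shortest bin to 35.9, 21.4 and 14.8% in the longest. For CACAAGA the share among genes higher was above that among genes not called in each bin, from 4.29 against 0.98% in the shortest to 30.6 against 23% in the longest.

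Seen by heptamer, the 1018 genes with GCACTTA alone had a median log2 fold change of -0.464, with 30.1% called lower and 8.64% called higher with siNRP1#5. The 1149 genes with CACAAGA alone had a median of 0.253, with 26.2% called higher and 10.8% lower. The 11653 genes with neither had a median of 0.124, with 19.8% called higher and 12.7% lower. They are most of the 14087 genes and so also hold most of the called genes. Over all 14087 genes 19.4% were called higher and 14% lower. Against siNT, the genes with GCACTTA alone had a median of -0.458 with siNRP1#5 and 0.00583 with siNRP1#3, and those with CACAAGA alone had 0.00563 and -0.258. Both contrasts use the same siNT samples. The part that these matches have in the differences between the siRNAs was not tested.

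**Figure D3:**
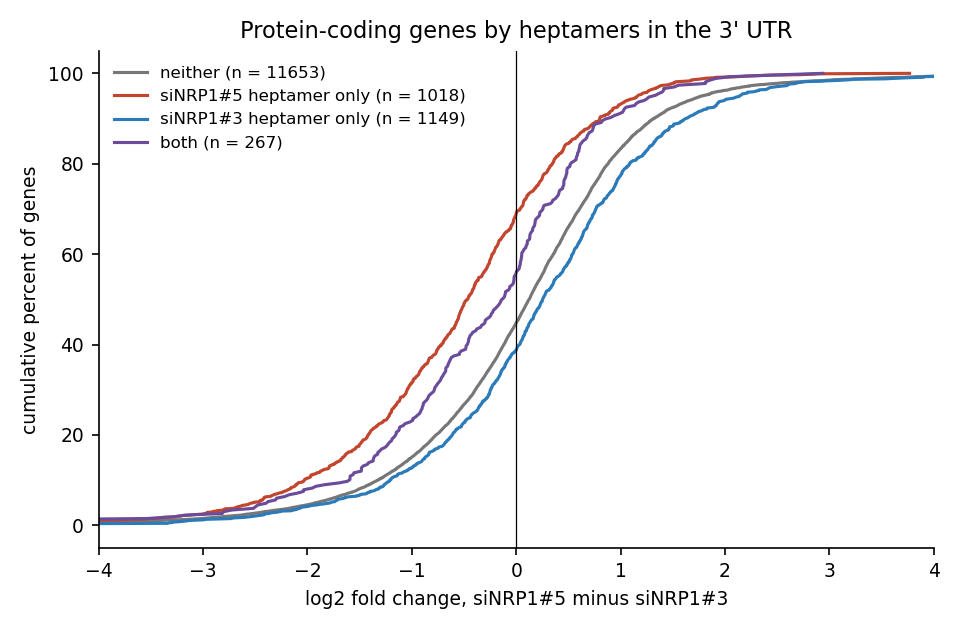
Cumulative percent of protein-coding genes (y axis) by log2 fold change between siNRP1#5 and siNRP1#3 (x axis, shown from -4 to 4), split by which seed-facing heptamer the 3′ UTR holds. The curve of the 1018 genes with the siNRP1#5 heptamer alone lies to the left of the 11653 genes with neither, and that of the 1149 genes with the siNRP1#3 heptamer alone lies to the right.

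Gene lists for pathways of NRP1 and of breast cancer cells are described next by their counts, beside the 16% of all genes called higher and 13.7% called lower. On TPM without TMM scaling, calls moved downwards, to 2 higher and 7 lower for the neuropilin list, 3 and 5 for the VEGF and receptor list, 2 and 7 for glycolysis, 1 and 12 for extracellular matrix, 2 and 6 for proteases, 1 and 5 for integrins, 0 and 9 for NF-kB and for TGF-beta, 1 and 4 for CDK inhibitors, 3 and 2 for epithelial genes, 1 and 2 for the RNA interference machinery, 1 and 0 for cholesterol and 0 and 12 for lysosome genes. Of 28 tested neuropilin, semaphorin and plexin genes, 8 were higher and 7 lower with siNRP1#5 (median 0.49). The plexin receptors moved both ways. PLXNA2, a co-receptor of NRP1 for class 3 semaphorins, was at 16.3 and 46.7 CPM with siNRP1#5, 3.71, 4.5 and 7.41 CPM with siNRP1#3 and 24.1, 14.7 and 30.1 CPM with siNT (2.60 ± 0.41). PLXNA3, another such co-receptor, was lower with siNRP1#5, at 25.8 and 23.2 against 60.7, 116 and 59.5 CPM (-1.69 ± 0.29), and the semaphorin 5A receptor PLXNB3 was at 2.57 and 2.74 against 9.88, 16.8 and 10.7 CPM (-2.23 ± 0.33). NRP2, the paralogue of NRP1, was named after its value was seen and had a log2 fold change of 0.10 (adjusted p 0.871). The count of higher genes was 4 without siNRP1#3 replicate 1, 5 without siNRP1#3 replicate 3 and 3 without siNRP1#5 replicate 3.

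Among VEGF family members, growth factors and receptor tyrosine kinases, 7 of 28 were higher and 4 lower. PGF, a VEGF family ligand that binds NRP1, was at 38.2 and 172 CPM with siNRP1#5, 6.24, 6.53 and 5.8 CPM with siNRP1#3 and 27.9, 35.9 and 35 CPM with siNT. The siRNAs stood on opposite sides of siNT, but only siNRP1#3 was called different from it (adjusted p 0.0399, against 0.114 for siNRP1#5, edgeR). PDGFA, a ligand of the PDGF receptors, was at 71.9 and 70 against 18, 21.8 and 23.4 CPM (1.75 ± 0.28), and the receptor FGFR1 at 110 and 236 against 69.1, 82 and 75.4 CPM (1.20 ± 0.26), whose call was lost without siNRP1#5 replicate 3 (adjusted p 0.118) and on TPM. EGF was low in all samples and lower with siNRP1#5 (0.222 and 0.317 against 1.13, 1.19 and 1.73 CPM), though not called on TPM. FLT1, KDR and FLT4, the VEGF receptors, did not pass the filter on low counts. The higher count was 4 without siNRP1#5 replicate 3, and without replicate 2 the lower count was 2.

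Among 21 genes of MAPK feedback and output, 3 were higher and 2 lower (5 higher with the replicate number as a block). DUSP5, a nuclear phosphatase that ERK induces, was at 223 and 197 CPM with siNRP1#5, 18.2, 22.9 and 24.3 CPM with siNRP1#3 and 48.1, 121 and 46.4 CPM with siNT (adjusted p 1.60e-05). ETV4 was at 153 and 78.4 against 38.9, 48.6 and 30.3 CPM, with no call without siNRP1#5 replicate 2 (adjusted p 0.06). The feedback inhibitor SPRED3 (-2.16 ± 0.39) and the receptor EPHA4 (-2.15 ± 0.37) were lower.

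Many cell cycle genes were higher with siNRP1#5 than with siNRP1#3. Of 26 DNA replication and S-phase genes, 18 were higher and none lower (median 1.65), with 0 lower also at an unadjusted p under 0.05 and by DESeq2. MCM6 was at 150 and 175 CPM with siNRP1#5, 35.2, 21.5 and 27.6 CPM with siNRP1#3 and 44.9, 54.6 and 69.9 CPM with siNT. UHRF1, which maintains DNA methylation at replication forks, was at 49.3 and 96.3 CPM against 8.47, 5.5 and 10.7 CPM, and the replication licensing factor CDT1 at 111 and 132 CPM against 28.2, 23.3 and 26.6 CPM. MCM5, another helicase subunit, was at 322 and 459 CPM against 122, 60 and 124 CPM (1.94 ± 0.31). The siNT samples lay between both groups for MCM6 and UHRF1. The count was 11 without siNRP1#5 replicate 3, and 11 on TPM without TMM scaling.

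G2/M and mitotic genes had the same direction, with fewer calls in the main fit. There 7 of 25 were higher and none lower (median 1.05, with 0 lower also at an unadjusted p under 0.05 and by DESeq2). The replicate block reversed this order, with 21 of 25 called higher against 16 of 26 DNA replication genes. AURKA, a mitotic kinase, was at 42.8 and 119 CPM with siNRP1#5, 17, 4.99 and 17.4 CPM with siNRP1#3 and 47.2, 32.4 and 88.8 CPM with siNT. FOXM1, a transcription factor of mitotic genes, was at 124 and 342 against 60.2, 20.8 and 84.2 CPM, and the centromeric histone CENPA at 17.3 and 24.9 against 5.77, 1.75 and 10 CPM. AURKB had a log2 fold change of 1.76 ± 0.40. In AURKA, AURKB, FOXM1 and CENPA, replicate 2 was the lowest siNRP1#3 sample and also the lower siNRP1#5 sample. With the replicate number as a block, 21 of 25 were called, and without siNRP1#5 replicate 3, 2 were, with the calls of AURKB, FOXM1 and CENPA lost.

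Of 19 CDK inhibitors and p53 targets, 3 were higher and 2 lower. CDKN1C, the imprinted CDK inhibitor p57, was at 7.3 and 15.4 CPM with siNRP1#5, 0.301, 1 and 0.611 CPM with siNRP1#3 and 0.807, 1.6 and 1 CPM with siNT. SESN2, a stress-induced inhibitor of mTORC1, was higher mainly in siNRP1#5 replicate 2 (202 and 51.4 against 28.9, 43.7 and 30.5 CPM), and its call was lost without that sample (adjusted p 0.348) and on TPM. The p53 targets TP53I3 (-1.97 ± 0.37) and ZMAT3 (-1.44 ± 0.26) were lower. Leaving out siNRP1#5 replicate 3 gave 4 lower.

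The unfolded protein and ATF4 response list had 13 of 24 genes higher and 1 lower (median 1.34). PSAT1, of serine synthesis, was at 664 and 80.6 CPM with siNRP1#5, 15.4, 44 and 20.2 CPM with siNRP1#3 and 202, 120 and 46.5 CPM with siNT. TRIB3, a pseudokinase that ATF4 induces, was at 1077 and 227 against 58.5, 110 and 77 CPM, and the mitochondrial serine hydroxymethyltransferase SHMT2 at 972 and 380 against 155, 191 and 146 CPM. In these 3 genes siNRP1#5 replicate 2 was far above replicate 3, and the siNT samples also ranged widely. SEL1L, a subunit of the complex for degradation of misfolded proteins, was lower (-1.22 ± 0.24). Without siNRP1#5 replicate 2 the count fell from 13 to 5, and PSAT1 and TRIB3, with the lone siNRP1#5 sample taken to vary like the other groups, had adjusted p of 0.0805 and 0.0674. On TPM without TMM scaling 7 were called higher.

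Of 26 interferon-stimulated genes, 13 were lower and 1 higher with siNRP1#5 (median -1.21). STAT2, which carries the type I interferon signal, was at 11.2 and 14.2 CPM with siNRP1#5, 100, 106 and 90.3 CPM with siNRP1#3 and 73, 90.5 and 76.1 CPM with siNT, and its partner IRF9 at 7.97 and 9.4 CPM, 44.1, 48.6 and 42.2 CPM and 24.5, 30.4 and 21.8 CPM. OAS1, a sensor of double-stranded RNA, was at 0.889 and 1.21 CPM against 14.5, 12.8 and 16 CPM (-3.77 ± 0.59), and the antiviral GTPase MX2 at 3.72 and 2 against 17.6, 19.2 and 12.6 CPM (-2.54 ± 0.46). Both siNRP1#5 samples lay below all siNT samples in these 4 genes, and for none of them the difference between siNRP1#3 and siNT passed the test. The gene called higher was ISG15 (1.45), named after its value was seen. The lower count was 8 without siNRP1#5 replicate 3.

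NF-kB targets, cytokines and chemokines gave few calls, with 1 of 28 higher and 3 lower (median -0.55, 8 lower with the replicate block). NFKB1 (-0.84 ± 0.23), NFKB2 (-1.25 ± 0.39) and the inhibitor NFKBIA (-1.03 ± 0.37) were lower, and CSF1 was higher (0.97 ± 0.35). The adjusted p of the 4 lay between 0.0143 and 0.0457, and each lost its call in several settings. CSF1 lost it without siNRP1#3 replicate 1 or 3 or either siNRP1#5 sample, and with only the 3 siRNA groups in the fit 0 genes of the list were called by edgeR (2 higher and 4 lower at an unadjusted p under 0.05), where DESeq2 on all groups called 1 higher and 4 lower. The lower count was 1 without any 1 siNRP1#3 sample or without siNRP1#5 replicate 3, and 9 without siNRP1#5 replicate 2.

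Several receptors and storage proteins of TGF-beta were lower. Of 27 TGF-beta and BMP genes, 7 were lower and 1 higher (median -0.45). TGFBR2, the type II TGF-beta receptor, was at 42.7 and 71.9 CPM with siNRP1#5, 259, 220 and 292 CPM with siNRP1#3 and 554, 353 and 627 CPM with siNT, so siNRP1#3 too lay below siNT. The latent TGF-beta binding proteins LTBP2 (2.76 and 4.6 against 18.2, 23.8 and 14.3 CPM) and LTBP1 (3.43 and 3.63 against 10.3, 7.44 and 10.8 CPM) and the BMP receptor BMPR2 (8.61 and 15.5 against 40.2, 38.1 and 36.2 CPM) were lower in both siNRP1#5 samples than in any siNRP1#3 sample. Leaving out siNRP1#5 replicate 2 gave 3 higher, and leaving out replicate 3 gave 0.

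Extracellular matrix genes were called lower more often than higher (9 and 2 of 36, median -0.19). FBN1, the microfibril protein fibrillin-1, was at 13.8 and 14 CPM with siNRP1#5, 108, 101 and 92 CPM with siNRP1#3 and 79.3, 52.5 and 38.1 CPM with siNT. Fibronectin (FN1) was at 1230 and 1498 CPM against 3859, 6969 and 4068 CPM (-1.86 ± 0.36), and the laminin chain LAMB1 at 128 and 131 against 254, 288 and 213 CPM. HAS2, a hyaluronan synthase, was low and higher with siNRP1#5 (1.87 and 4.04 against 0.276, 0.233 and 0.143 CPM). Leaving out siNRP1#5 replicate 2 gave 4 higher and 6 lower.

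Among 16 integrins 4 were higher and 6 lower. ITGB3, a receptor subunit for vitronectin and fibronectin, was at 35.4 and 33.7 CPM with siNRP1#5, 236, 264 and 221 CPM with siNRP1#3 and 218, 235 and 148 CPM with siNT (adjusted p 5.47e-05). ITGA6, the laminin-binding alpha 6, was higher with siNRP1#5 at 54.2 and 102 CPM than with siNRP1#3 at 26.8, 19.8 and 29.7 CPM, where siNT had 151, 67.4 and 154 CPM. Its partner ITGB4 is described above as lower with siNRP1#5, so the alpha 6 and beta 4 subunits differed in opposite directions. ITGB6 was at most 0.998 CPM in all 5 samples, with 2 counts in the siNRP1#5 group, and was not called without siNRP1#5 replicate 3. Without siNRP1#5 replicate 3 the counts were 1 higher and 2 lower, and 2 were higher without siNRP1#3 replicate 1 or 3.

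Matrix proteases and their inhibitors had 5 of 27 higher and 3 lower. MMP9, a gelatinase, was at 2.57 and 4.32 CPM with siNRP1#5 and 0, 0.0233 and 0.0815 CPM with siNRP1#3, with 0.112, 0.932 and 0.1 CPM after siNT. The other gelatinase, MMP2, was lower at 666 and 783 against 1254, 2011 and 1252 CPM (-1.05 ± 0.27), with an adjusted p of 0.0561 without siNRP1#5 replicate 2. The inhibitors were split, with TIMP3 at 1370 and 1557 against 470, 844 and 396 CPM and TIMP1 at 733 and 759 against 1928, 1720 and 1159 CPM. With the replicate block 5 were lower. Without siNRP1#3 replicate 1, 2 were higher, without siNRP1#3 replicate 2 or siNRP1#5 replicate 3, 3 were higher, and without siNRP1#5 replicate 2, 1 was lower.

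Of 24 YAP and TEAD targets 3 were higher and 3 lower. LATS2, the kinase that restrains YAP, was at 3.3 and 5.12 CPM with siNRP1#5, 18.1, 19.2 and 22.1 CPM with siNRP1#3 and 15.1, 14.8 and 15.3 CPM with siNT. The coagulation initiator F3 was at 29.7 and 32.3 against 152, 132 and 129 CPM. The GTPase-activating protein DLC1 (1.55 ± 0.28) and FJX1 (1.43 ± 0.32) were higher.

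Of 16 mesenchymal and claudin-low genes, 3 were higher and 2 lower. Vimentin (VIM) was at 5016 and 6339 CPM with siNRP1#5, 2628, 2091 and 1783 CPM with siNRP1#3 and 4168, 4055 and 4382 CPM with siNT (1.39 ± 0.24). SNAI1, a repressor of epithelial genes, was at 69.2 and 61.8 against 28.1, 45.4 and 22.3 CPM (adjusted p 0.0168), a call that was lost without siNRP1#3 replicate 1 or 3 or siNRP1#5 replicate 2. ZEB1, named after its value was seen, had a log2 fold change of 0.13 (adjusted p 0.864). Without siNRP1#3 replicate 1 or 3 or siNRP1#5 replicate 2, 1 gene was called lower.

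Of 16 epithelial genes, 4 were higher and none lower with siNRP1#5, with 1 lower at an unadjusted p under 0.05 and 0 by DESeq2. The tight junction gene CLDN4 was at 6.96 and 20.8 CPM with siNRP1#5 and 0.928, 1.49 and 1.85 CPM with siNRP1#3, and the keratins KRT18 at 1006 and 1019 against 512, 391 and 349 CPM and KRT7 at 1553 and 536 against 212, 204 and 174 CPM, whose call was lost without siNRP1#5 replicate 2 (adjusted p 0.0927). KRT8 was at 2128 and 2852 CPM against 1526, 1363 and 1360 CPM with siNRP1#3 and 826, 654 and 1241 CPM with siNT, a call (adjusted p 0.0353) that was lost without any 1 of the siNRP1#3 samples or without siNRP1#5 replicate 3. Leaving out either siNRP1#5 sample gave 1 lower call.

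In metabolism, 5 of 30 cholesterol and fatty acid synthesis genes were higher and none lower (0 also at an unadjusted p under 0.05 and by DESeq2), which rested on siNRP1#5 replicate 3. EBP, a sterol isomerase, was at 39 and 155 CPM with siNRP1#5, 16.5, 9.84 and 18.8 CPM with siNRP1#3 and 40.4, 41.5 and 83.9 CPM with siNT. SQLE, squalene epoxidase, was at 57 and 218 against 39.4, 23.5 and 51.9 CPM. NSDHL was at 71.3 and 141 against 59.9, 43.3 and 60.4 CPM. Both SQLE and NSDHL lost their calls without siNRP1#5 replicate 3 and on TPM, and NSDHL also without siNRP1#3 replicate 2. With the replicate block 8 were higher, without siNRP1#5 replicate 2, 13 were, without siNRP1#3 replicate 2, 2 were, and without siNRP1#5 replicate 3, 1 was higher and 1 lower.

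Glycolysis and hypoxia response genes had 8 of 27 higher and 2 lower. The enolases differed in opposite directions, with ENO1, the common form, at 6496 and 7638 CPM against 3174, 2636 and 2908 CPM and ENO2, the neuronal form, at 30.5 and 13.6 against 145, 145 and 112 CPM. NDRG1 was at 73.3 and 154 against 33.1, 47.8 and 38.5 CPM (adjusted p 0.0681 without siNRP1#5 replicate 3) and the hypoxia-induced ANKRD37 at 1.56 and 1.75 against 4.74, 5.95 and 7.64 CPM. With the block 5 were lower, without siNRP1#5 replicate 3, 4 were higher and 4 lower, and without siNRP1#3 replicate 3, 5 were higher.

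Of 25 lysosome and autophagy genes 5 were lower and none higher with siNRP1#5 (0 also at an unadjusted p under 0.05 and by DESeq2, 8 lower with the replicate block). The protease TPP1 was at 58.8 and 48.9 CPM against 158, 253 and 139 CPM, and the membrane protein LAMP2 at 61.1 and 59 against 175, 137 and 143 CPM (184, 145 and 156 CPM with siNT). The cholesterol carrier NPC2 (-1.16 ± 0.24) was also lower. Among 13 genes of the RNA interference machinery, 4 were higher and 1 lower. AGO2, the slicer, was at 65 and 84 against 32.9, 39.6 and 27.8 CPM (34.6, 27.1 and 38 CPM with siNT), TARBP2 had 0.82 ± 0.20 and DGCR8 1.24 ± 0.31, and AGO1 was lower at 9.97 and 10.1 against 23, 21.9 and 21.9 CPM. Of this machinery 1 gene was higher and 2 lower without siNRP1#5 replicate 3, where AGO2 and DGCR8 lost their calls, and TARBP2 and DGCR8 were not called on TPM.

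**Figure D4:**
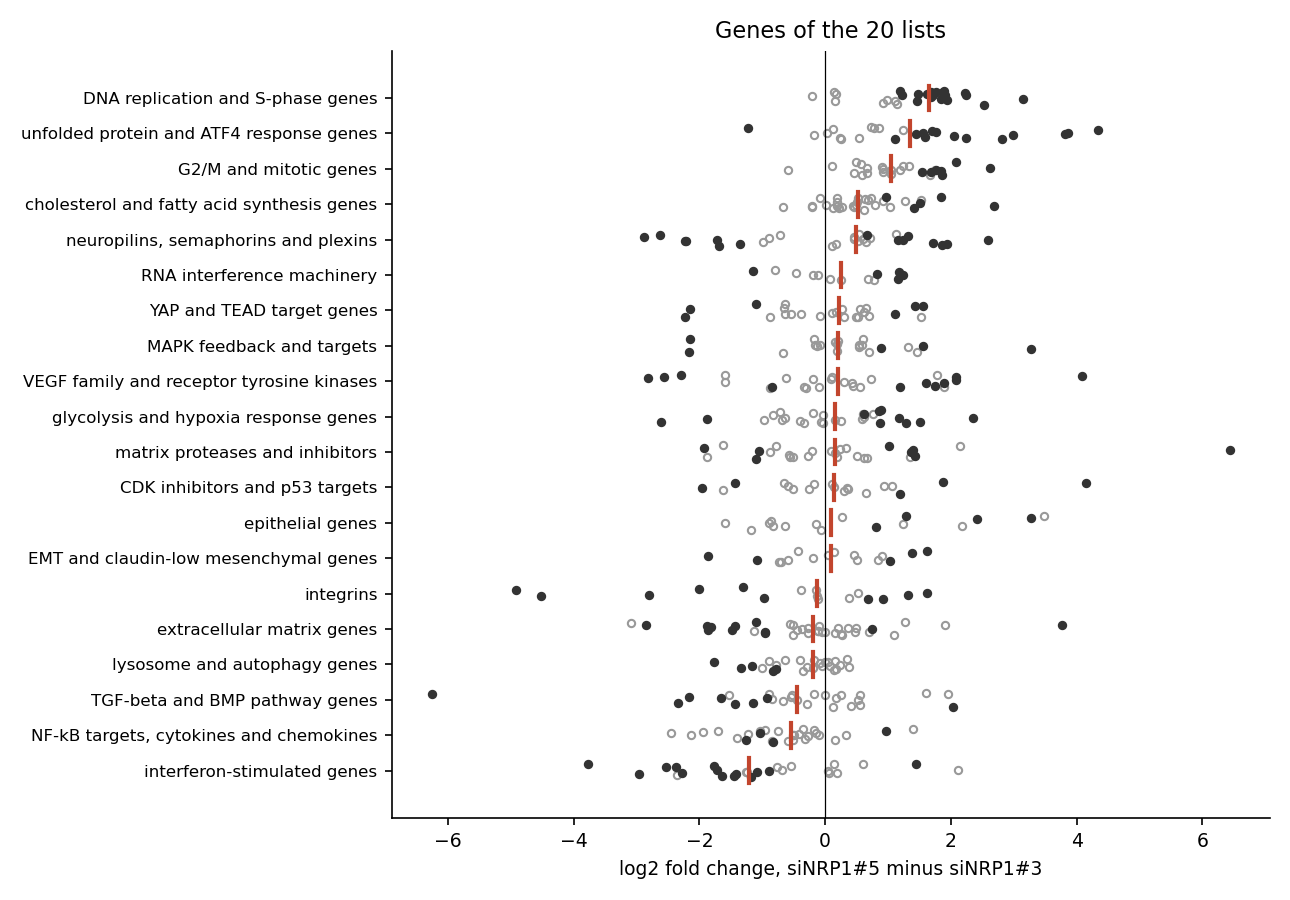
Log2 fold change between siNRP1#5 and siNRP1#3 of every tested member of the 20 lists (x axis), filled where called, with the list median as a red bar. The DNA replication list has its median at 1.65 with 18 of 26 filled points to the right of 0, and the interferon list at -1.21 with 13 of 26 filled points to the left.

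The hairpin pair has the same design in the same cells with another delivery. The hairpin directed only at the transmembrane form is shNRP1#3. In the authors' quantitative PCR of these cells, repression of the transmembrane form by that hairpin lacked statistical significance. Transmembrane and soluble transcripts were not summed here for the hairpins, and their level without knockdown is not given. Whether the hairpins differ in the same forms as the siRNAs was therefore not tested. The shNRP1#5 sequence is that of siNRP1#5, whereas shNRP1#3 has another sequence than siNRP1#3. NRP1 was at 53, 41.8 and 49.5 CPM with shNRP1#5 and 129, 82 and 75.6 CPM with shNRP1#3, a log2 fold change of -0.99 (adjusted p 0.0461). In all, 1747 genes differed between the hairpins (8.71% of 20067), with 4.91% higher and 3.8% lower with shNRP1#5. Of the 5967 genes called between the siRNAs 12.8% were called here too, which is 43.8% of the hairpin calls, and 685 of these 765 had the same direction (89.5%). Among all siRNA calls 73% had the same sign with the hairpins, against 61.4% of all genes tested, and the Pearson correlation across the 20067 genes, which are not independent replicates, was 0.308.

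The difference itself was called to be unequal with siRNA and shRNA for 2003 genes (9.98%), and for 3006 with the replicate block and 1154 without siNRP1#3 replicate 1. H19 was at 39.2, 6.9 and 11.8 CPM with shNRP1#5 and 0.0774, 0 and 0.139 CPM with shNRP1#3, NES had a hairpin log2 fold change of 6.63, and CDKN1C of 4.99. EXOC3L2 was at 7.42, 2.16 and 1.67 CPM with shNRP1#5 and had no count in any shNRP1#3 sample, and MMP9 was at 0.726, 1.05 and 0.668 against 0.0155, 0 and 0.0556 CPM. The 8 lowest-p genes in each direction all had an unequal difference. They were picked on the siRNA values that this test reuses, which by itself makes an unequal difference likely. Of the 8 higher ones, GNAI2 (0.02), FUNDC2 (-0.08) and CTBP2 (0.10) were near 0 between the hairpins. MRPS7 was called higher with shNRP1#5 too (0.71, adjusted p 0.0129, edgeR). Of the 8 lower ones, 7 were also lower with shNRP1#5, such as CYBRD1 (-1.64) and DAZAP2 (-1.15), while BECN1 was not (-0.17, adjusted p 0.724). In the lists, 2 of 26 DNA replication genes were called higher with shNRP1#5, and the difference was unequal for 5 of these genes, for 8 of 24 ATF4 response genes and for 1 of 25 G2/M genes. GCACTTA was in the 3′ UTR of 24.1% of the 675 protein-coding genes lower with shNRP1#5 and 6.47% of the 835 higher, beside 9.12% of all 14087. CACAAGA was in 10.8% of those lower and 8.38% of those higher, beside 10.1% of all.

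MDA-MB-231 received both siRNAs, with 3 samples of each. NRP1 was at 3.5, 2.48 and 2.08 CPM with siNRP1#5 and 44.1, 51.5 and 52.7 CPM with siNRP1#3, a log2 fold change of -4.20 that was larger than in SUM159PT (adjusted p of the difference 0.00136). There 4787 of 22039 genes differed (21.7%, with 11.2% higher and 10.5% lower), in a fit of 35 samples from both lines. They include 37.3% of the SUM159PT calls, and the shared genes are 50.4% of the MDA-MB-231 calls tested in SUM159PT. Of these 2224 genes 2135 had the same direction (96%). Among all SUM159PT calls 80.6% had the same sign in MDA-MB-231, against 66.1% of all genes, and the Pearson correlation across 20067 genes was 0.416.

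The difference was unequal in the 2 lines for 2340 genes (10.6%). HIF1AN (-2.06), CYBRD1 (-2.42), DAZAP2 (-2.40) and BECN1 (-2.33) were lower and GNAI2 (2.54) and NCAL1 (2.01) higher in MDA-MB-231 with no unequal difference called. H19 was at 6.66, 7.11 and 10.3 CPM with siNRP1#5 and 0.214, 0.12 and 0.249 CPM with siNRP1#3 there, and CD180 was at 17.9, 20.8 and 8.59 against 0, 0.02 and 0.0311 CPM. Of the DNA replication genes 3 were higher and 2 lower in MDA-MB-231, and 17 of 26 had an unequal difference. Of the ATF4 response genes 1 was higher and 1 lower there, with 9 of 24 unequal, and of the interferon-stimulated genes 5 were higher and 5 lower, with 10 of 26 unequal. The glycolysis list had 17 of 27 higher in MDA-MB-231, with 5 unequal. GCACTTA was in 25.6% of the 1514 protein-coding genes lower with siNRP1#5 in MDA-MB-231 and 5.3% of the 1964 higher, beside 9.12% of all 14087. CACAAGA was in 8.85% of those lower and 16.8% of those higher, beside 10.1% of all.

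**Figure D5:**
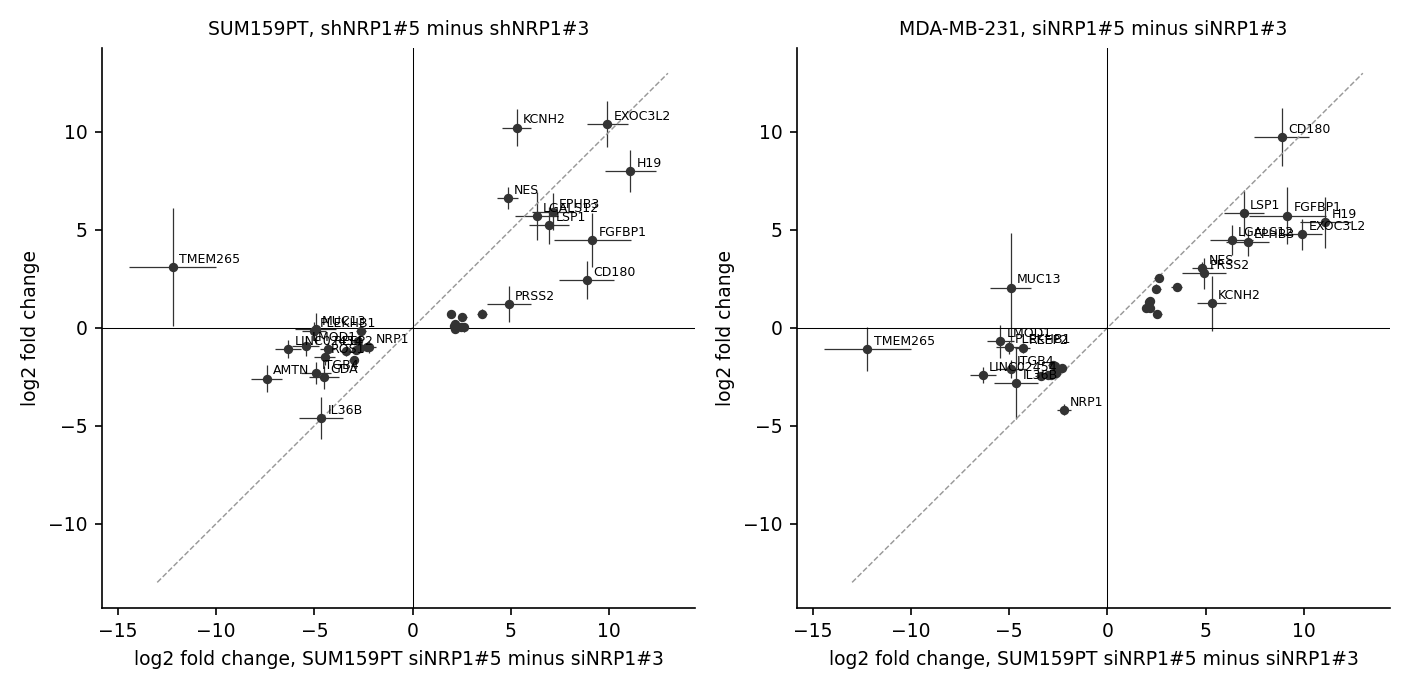
Log2 fold change of NRP1 and the genes named for size or lowest p between siNRP1#5 and siNRP1#3 in SUM159PT (x axis) against the hairpin pair in SUM159PT (left, 37 genes) and the siRNA pair in MDA-MB-231 (right, 34 genes), with SE as bars and equality as the dashed line. NRP1 lies below the line on the right (-4.20 against -2.22), and the positions of genes at or near 0 counts in 1 group, such as EXOC3L2, H19, FGFBP1, CD180 and TMEM265, depend on the prior count of the fit.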

How the data were processed

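Stranded, poly(A)-enriched libraries were sequenced for 52 samples in 18 groups. Per the labels and methods, the authors trimmed reads with Trim Galore 0.6.5, aligned them with STAR 2.7.2b to GRCh38 and quantified them with RSEM 1.3.3. The deposited expected counts (78894 genes, 387954 transcripts) are not scaled for library size, the deposited TPM are scaled to a fixed total, and the deposited isoform percent is a transcript's percent of its gene. No column was left without a sample (0).

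Expected counts were rounded here and tested with edgeR 4.0.16 (filterByExpr, TMM, glmQLFit with robust = TRUE, glmQLFTest) in 1 fit of all 17 SUM159PT samples with 6 group means, or of 35 samples for the interaction with MDA-MB-231. HS578T was in no fit and served only for the marker genes given above. SE are the log2 fold change divided by the square root of F. Genes are named by rule: NRP1; per direction the 10 largest called fold changes with no overlap and a mean of at least 5 CPM in the higher group, and the 8 lowest p; and up to 4 called members of each list. A few genes that these rules name are not reported here. The members, lists and tests were chosen with earlier results of these data known.

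Alternatives were DESeq2 1.42.0, RLE, no filter, fewer groups, a replicate block, limma 3.58.1 on log2(TPM + 0.1) and log2(TPM + 1), and leaving out each sample. Library totals were 39670676 to 59470456 in the 5 samples. Same-numbered samples of the 3 siRNA groups deviated together in all 7 pairs (r from 0.132 to 0.392, prior count 2). Pairs with unlike numbers ran from -0.466 to 0.262, so some exceeded the lowest same-numbered value. With 2 samples, the siNRP1#5 deviations mirror each other by construction. Whether the numbers pair the samples is therefore not settled. The main fit did not use them, and the replicate block did. Replicates were separate libraries (chi-square per degree of freedom at least 59.4). Counting intervals (95%, exact Poisson) cover counting error only, and reads carried no molecular identifiers. Heptamers were searched in the 3′ UTR of 1 transcript per gene (GENCODE 44; the authors used a later release on the same build), on the transcript strand. Tools were R 4.3.3 and the data.table package (1.17.8).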

Additional observations from a re-analysis of the deposited data

Results flagged for a closer look

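A difference between siNRP1#5 and siNRP1#3 that was not the same elsewhere, by a test of the interaction itself (edgeR, adjusted p under 0.05), was found for 2003 genes against the hairpin pair and for 2340 genes against MDA-MB-231. Among NRP1 and the genes named for size or lowest p, the values below are the log2 fold change in the SUM159PT siRNA pair minus that in the other pair. The genes named for size or lowest p were picked on the siRNA values that this test reuses, which favours larger differences in the siRNA pair. Delivery, selection, time of harvest and the #3 sequence all differ between the siRNA and the hairpin pair and cannot be told apart.

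Against the hairpins the value was above 0 for CD180 6.43, MRPL58 2.81, CTBP2 2.03, FUNDC2 2.24, GNAI2 2.59, SF3B2 1.98, MCM6 2.00, MRPS7 1.24 and NCAL1 2.44. It was below 0 for KCNH2 -4.92, AMTN -4.84, LINC02454 -5.24, LMOD1 -4.54, PLEKHB1 -4.86, MUC13 -4.87, ROS1 -2.99, HADHB -2.14, DAZAP2 -1.71, CYBRD1 -1.37, HIF1AN -1.33, REEP2 -3.25, CYB5R3 -1.66, ATF6B -2.16 and BECN1 -2.46. KCNH2 was the one gene here whose increase was larger with the hairpins.

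Against MDA-MB-231 the value was above 0 for NRP1 1.91, NES 1.69, MRPL58 1.39, CTBP2 0.72, FUNDC2 0.74, SF3B2 1.07, MCM6 1.77 and MRPS7 0.87, where NRP1 stands for a smaller fall in SUM159PT. It was below 0 for LINC02454 -4.01, LMOD1 -4.81, PLEKHB1 -4.07, ITGB4 -2.89, HADHB -0.98, REEP2 -3.36, CYB5R3 -0.80 and ATF6B -0.96. Groups had 2 or 3 samples, so no sample was tested for lying apart from its group.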

How the results depend on the processing

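The count of genes that differ between the siRNAs depended on how many samples set the spread. It was 5967 with all SUM159PT samples, 3401 (1717 higher, 1684 lower) with only the 2 groups and 3564 (1874 higher, 1690 lower) with only the 3 siRNA groups, of which 3307 and 3503 were among the 5967. On log2(TPM + 0.1) and log2(TPM + 1), 1170 and 1086 genes were higher and, on the former, 4293 lower. After TMM scaling of the TPM, chosen after seeing the data, the counts were 2768 higher and 2851 lower, and the median of all genes moved from -0.347 to -0.0359, so the scaling sets that split. DESeq2 gave 6651, RLE 6036, no filter 6110 and the replicate block 6616. Leaving out 1 sample gave 4208 to 5261 genes (2226 to 2860 higher, 1938 to 2401 lower). Of the genes shared with the 5967, every one had the same direction in each of these settings.

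The interaction with shRNA had 3006 calls with the replicate block and 1154 to 2528 when 1 sample was left out, and that with MDA-MB-231 had 1589 to 2943. NRP1 kept its call in all settings (-3.35 to -1.86). The transmembrane difference was -1.65 to -0.594 and the soluble one -6.41 to -4.55 when 1 sample was left out, and the soluble one was -3.79 on log2(TPM + 1), a larger pseudocount by construction. Of 109 other named genes, 80 kept their call in all settings run, and 0 turned their direction. Leaving out a siNRP1#5 sample leaves a group of 1, assumed to vary like the other groups. Leaving out siNRP1#5 replicate 3 ended the most calls (17 named genes lost theirs without it, 10 without siNRP1#5 replicate 2 and 4 or 5 without a siNRP1#3 sample). The replicate block changed no call of a named gene beside those counts given with the lists. The cause of these changes was not tested where none is given. Depth does not limit NRP1 (937 counts with siNRP1#5), and limits the folds of H19, EXOC3L2 and TMEM265.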

Other observations

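Families outside the lists, grouped by symbol after their values were seen and so with no test of the group, are given beside the 16% of all genes called higher and 13.7% called lower. Of 79 mitochondrial ribosomal protein genes, 52 were higher and 1 lower with siNRP1#5 (median log2 fold change 0.80), and 23 were higher and 2 lower on TPM without TMM scaling. MRPL12 was at 407 and 398 CPM with siNRP1#5, 126, 143 and 150 CPM with siNRP1#3 and 181, 233 and 219 CPM with siNT. Of 78 cytosolic ribosomal protein genes 31 were higher and 0 lower by edgeR (13 and 2 on TPM), and RPS2 was at 7280 and 4970 CPM with siNRP1#5 against 1300, 2070 and 1130 CPM with siNRP1#3 and 5240, 4880 and 4340 CPM with siNT. Counts of ribosomal protein genes may share reads with their many pseudogenes. ATP synthase subunit genes (9 of 19 higher, 0 lower) and cytochrome c oxidase genes (9 of 22 higher, 0 lower) had the same direction, with 1 and 3 higher on TPM.

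HLA genes had the other direction, with 7 of 16 lower and 0 higher (9 lower on TPM). HLA-E, which presents signal peptides to natural killer cells, was at 216 and 155 CPM with siNRP1#5 against 488, 887 and 403 CPM with siNRP1#3 (log2 fold change -1.68, adjusted p 0.00296 by edgeR). Of 459 LINC transcripts 92 were lower and 35 higher, and of 52 TRIM genes 13 were lower and 4 higher.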
